A study of Mus musculus with 2 samples.

Results

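Genes of neuropeptides and secretory granule proteins were followed through the vomeronasal organ (VNO), the chemosensory organ at the base of the nasal septum that detects pheromones. The 9 genes, chosen by name among the 32285 listed, were *Gal*, *Sct* and *Npy* (neuropeptides), *Chga*, *Chgb* and *Scg2* (granins), *Scg5* and *Pcsk1n* (chaperone and inhibitor of the prohormone convertases) and *Vgf* (a granin-related precursor). Whole VNOs of male C57BL/6J wild-type mice at P60 were dissociated, frozen, thawed and captured in 2 samples with 10000 cells targeted in each, from 5 mice in total. All mice were untreated and of 1 genotype, so the design compares cell types within the organ and holds no treated or mutant group. Each sample gave 1 droplet library, and each gene was counted in unique molecular identifiers (UMIs), where 1 UMI stands for 1 captured mRNA molecule. Each library is listed with 5 organs, and whether the 2 libraries share mice or 1 pool of cells is not known here. The spread between the 2 libraries may therefore be technical, and p-values measure only that spread.

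Neuropeptides are made as precursors, packed into dense core vesicles together with granins, cut by prohormone convertases and released on stimulation. Granins drive the packing of cargo into these vesicles, and *Chga* is the usual marker of endocrine and neuroendocrine cells. Vomeronasal sensory neurons (VSNs) arise throughout life through Neurog1+ and Neurod1+ precursors, and mature either in the apical layer, where they carry *Gnai2*, or in the basal layer, where they carry *Gnao1*.

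The lineage was divided into classes by marker UMIs. Neurog1+ precursors held at least 1 *Neurog1* UMI (69 cells in library 1 and 55 in library 2), and Neurod1+ precursors held *Neurod1* without *Neurog1* (65 and 61 cells). Immature neurons had more *Gap43*, a growth cone protein, than *Omp*, the marker of mature olfactory and vomeronasal neurons, and were apical where *Meis2* exceeded *Tfap2e* (102 and 83 cells) and basal where *Tfap2e* exceeded *Meis2* (46 and 41 cells). Mature VSNs had more *Omp* than *Gap43* and came from clusters of mature VSNs. These were named apical where the cluster had more *Meis2* than *Tfap2e* (309 and 247 cells), and basal otherwise (48 and 48 cells). All levels are counts per 1000000 UMIs (CPM), the UMIs of a gene among those of all cells of 1 class in 1 library, given for library 1 and then library 2. *Gnai2* stood at 3656.8 and 3870.7 CPM in the mature apical class and at 118.9 and 45.5 CPM in the mature basal class, and *Gnao1* at 2.51 and 5.90 CPM against 348.4 and 348.0 CPM. Both genes were among the markers that named clusters as mature VSNs, while *Meis2* and *Tfap2e* named the branch. Both could also enter the clustering, so these values describe the classes and test nothing.

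The 2 libraries held 108005626 and 95442231 UMIs in 12814 and 11270 barcodes, of which 5694 and 4898 cells were kept, with medians of 6668 and 6650 UMIs per cell. Median depth was 10221 and 8810 UMIs in Neurog1+ precursors, 9306 and 8715 in Neurod1+ precursors, and 14076 and 13055 in mature apical VSNs. Of the barcode sequences, 33 occurred in both libraries, 3 of them among the kept cells. Macrophage-like cells (858 and 788 cells, median 4179 and 4645 UMIs) served as the background of RNA free in the suspension, as cells outside the neuronal lineage. Clusters of 942 and 584 cells remained unnamed and enter no comparison. Intervals on shares and limits set by a count of 0 cover counting error only.

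All 9 genes are protein coding, and their positions are those of GENCODE vM21 on GRCm38 (mm10). *Chga* lies at chr12:102554969-102565028 on the plus strand, *Chgb* at chr2:132781278-132795079 (plus), *Scg2* at chr1:79434669-79440120 (minus), *Scg5* at chr2:113776362-113829121 (minus), *Gal* at chr19:3409915-3414544 (minus), *Sct* at chr7:141278330-141279133 (minus), *Npy* at chr6:49822710-49829507 (plus), *Vgf* at chr5:137026392-137033351 (plus) and *Pcsk1n* at chrX:7919822-7924410 (plus). *Pcsk1n* overlaps *Eras* on the opposite strand, the only overlap of a member with another gene.

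Promoter sequences are shown because granin genes are textbook targets of cAMP signalling, whose response element is TGACGTCA, and because Neurog1 and Neurod1 bind E-boxes such as CAGATG and CAGCTG. In the RefSeq promoters of GRCm38.p6, which were available for 8 of the 9 members, the 250 bases before the start were searched on both strands for these motifs and for the core TGACG, which is contained in the full element. The full element was present in 2 members, *Chgb* and *Scg2*, and in 1.55% of 32851 promoters. The 30 bases around each are given here from 5′ to 3′ on the strand of the gene, with the motif in capitals.
Chgb, chr2:132781559-132781588 (plus): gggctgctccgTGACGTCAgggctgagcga
Scg2, chr1:79440076-79440105 (minus): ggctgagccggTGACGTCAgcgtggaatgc
The element lay 72 to 65 bases before the RefSeq start of *Chgb* and 68 to 61 bases before that of *Scg2*. Both windows lie inside the GENCODE gene, which starts further upstream. The core alone was present in *Chga* and *Scg5* as well, so that 4 members held it, as did 17.8% of promoters.
Chga, chr12:102554885-102554914 (plus): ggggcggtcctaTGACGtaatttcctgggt
Scg5, chr2:113829249-113829278 (minus): aaaggaggtaaaTGACGttcataggggtcg
These lay 44 to 40 and 175 to 171 bases before the start. CAGATG occurred in *Sct* among the members and in 14.4% of promoters, and CAGCTG in *Sct* and *Chga* and in 13.0% of promoters. *Chga*, which was highest in mature apical VSNs, held CAGCTG at 179 to 174 and at 116 to 111 bases before the start. Of the E-box windows only those of *Sct*, which had no UMI in immature or mature neurons, are printed.
Sct with CAGATG, chr7:141279354-141279383 (minus): cctggacaCAGATGaagatgtccatttcgc
Sct with CAGCTG, chr7:141279248-141279277 (minus): gtggccggacgaCAGCTGggtgggcggccc
They lay 242 to 237 and 132 to 127 bases before the start. A match to these letters is a description and shows no binding.

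The members fell into 3 patterns along the lineage. *Sct* and *Scg2* were highest in Neurog1+ precursors, *Gal* was highest in Neurod1+ precursors, and *Chga*, *Chgb*, *Scg5* and *Pcsk1n* were highest in mature apical VSNs. *Npy* and *Vgf* were nearly undetected. In the kept cells, *Sct* had 648 UMIs in 144 cells, 85.3% of them in the precursor classes, *Scg2* had 134 UMIs with 76.1% in these classes, and *Gal* had 875 UMIs with 54.6%. The mature classes held 56.6% of the 41188 UMIs of *Chga* and 56.0% of the 2556 UMIs of *Chgb*. Unnamed clusters held a further 34.7% and 37.6%.

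**Figure D1:**
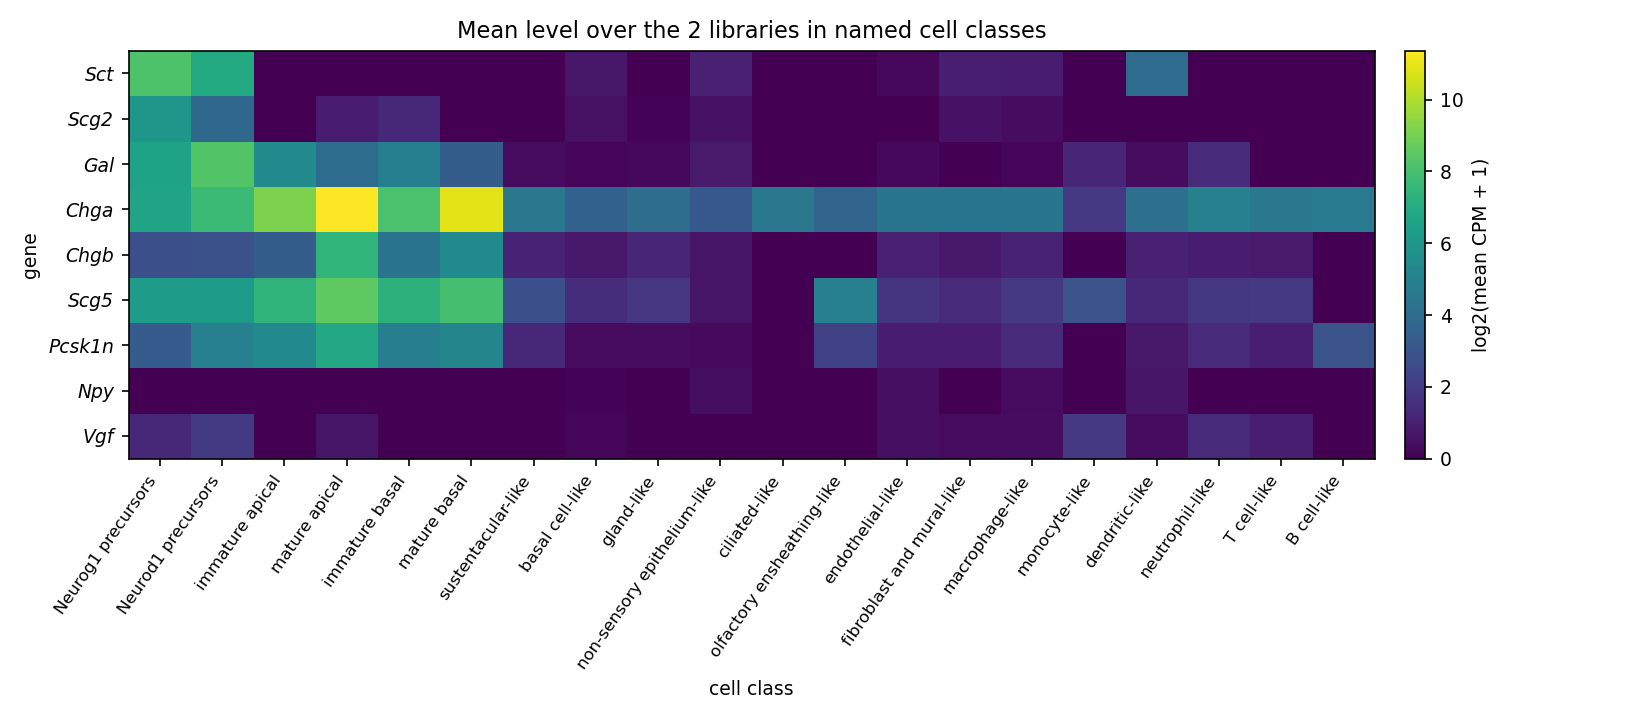
Level of each member in the cell classes shown, as log2(mean CPM + 1) over the 2 libraries, with genes in rows, cell classes in columns and colour giving the level. *Sct* and *Scg2* are strong in the precursor columns, *Gal* peaks in Neurod1+ precursors, and *Chga*, *Chgb*, *Scg5* and *Pcsk1n* are strongest in mature apical VSNs.

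*Sct* encodes secretin, a gut peptide hormone that is also made by some neurons. In Neurog1+ precursors it stood at 325.6 and 263.5 CPM (267 and 153 UMIs) and was detected in 44.9% and 40% of cells. In Neurod1+ precursors it stood at 89.2 and 153.1 CPM and was detected in 29.2% and 39.3% of cells. Both precursor classes were thus positive in both libraries, and the Neurog1+ class was higher in each. Immature apical, immature basal, mature apical and mature basal cells had no *Sct* UMI in either library. Against the limit of 3 UMIs over both libraries, *Sct* was at least 159.65-fold higher in Neurog1+ precursors and at least 63.2-fold higher in Neurod1+ precursors than in immature apical neurons, and at least 31.1-fold higher in Neurod1+ precursors than in immature basal neurons. Macrophage-like cells had 0.83 and 0.85 CPM in 0.350% and 0.381% of cells, so the share in precursors was above this background.

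Among the Neurog1+ precursors, *Sct* went with further features of the cells. Those with *Mki67*, a marker of dividing cells, stood at 408.2 and 417.6 CPM (29 and 19 cells), and those without it at 229.5 and 129.0 CPM (40 and 36 cells). Neurog1+ cells that lacked *Neurod1* had no *Sct* UMI in library 1 and 1 in library 2 (8 and 10 cells), and those with *Neurod1* stood at 366.4 and 300.6 CPM. Cells with both factors therefore held nearly all *Sct* of this class. Cells are not replicates, and these divisions were not tested. A lineage subcluster of 37 cells with *Mki67* raised, at 511.8 CPM of *Sct*, also carried genes of fibroblasts and mural cells. Another of 76 cells, with *Neurog1* and *Neurod1* but not *Mki67* raised, stood at 336.4 CPM. The part of the first in the division by *Mki67* was not tested. Outside the lineage, *Sct* was highest in dendritic-like cells, at 17.5 and 11.7 CPM (9 of 215 and 6 of 188 cells). There it rested on few cells, since 1 cell in each library held 12 of 29 and 11 of 16 UMIs.

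*Scg2* encodes secretogranin II, the precursor of secretoneurin. It stood at 58.5 and 67.2 CPM in Neurog1+ precursors (48 and 39 UMIs) and at 14.9 and 11.6 CPM in Neurod1+ precursors. Neurog1+ precursors were the highest class in both libraries. In library 2, however, 24 of the 39 UMIs were in 1 cell, and the shares of Neurog1+ cells with a UMI were 31.9% and 16.4%. No UMI was found in immature apical neurons, so *Scg2* was at least 33.1-fold higher in Neurog1+ precursors than there, and the mature classes together held 6 UMIs. As with *Sct*, Neurog1+ cells with *Mki67* held more (93.0 and 140.4 CPM) than those without it (18.5 and 3.23 CPM). In library 2 the cell with 24 UMIs was among those with *Mki67* and held most of their *Scg2*. The shares of cells with a UMI were 62.1% and 42.1% with *Mki67*, and 10.0% and 2.78% without it. The subcluster of 37 cells with fibroblast genes stood at 99.4 CPM of *Scg2*, and that of 76 cells at 57.5 CPM.

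*Gal* encodes galanin, a peptide of many developing and injured neurons. It stood at 96.3 and 94.7 CPM in Neurog1+ precursors and at 310.7 and 302.2 CPM in Neurod1+ precursors, where 47.7% and 50.8% of cells had a UMI. After thinning each cell to 4000 UMIs the shares were 37.5% and 38.6%. The level was then lower at each later step in the apical branch, at 48.2 and 39.5 CPM in immature and 16.9 and 13.0 CPM in mature neurons. In the basal branch it was 16.1 and 42.5 CPM in immature and 9.51 and 8.61 CPM in mature neurons. In order of level, Neurod1+ precursors stood above Neurog1+ precursors and these above the rest in both libraries, whereas immature apical and immature basal, and immature basal and mature apical neurons, overlapped. Macrophage-like cells had 0 and 0.28 CPM, below each of the lineage classes from Neurog1+ precursors on.

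Within the precursors, fewer cells held both *Gal* and *Sct* than held either alone. Whether the overlap differed from that given by the 2 shares alone was not tested. Among Neurog1+ precursors, both were found in 2 of 69 and 3 of 55 cells, *Sct* alone in 29 and 19 cells, and *Gal* alone in 11 and 10 cells. Among Neurod1+ precursors, both were found in 6 of 65 and 9 of 61 cells, *Sct* alone in 13 and 15 cells, and *Gal* alone in 25 and 22 cells. The part of the cells with *Gal* alone was larger in the Neurod1+ class of each library. A cell without a UMI may still express the gene at this depth. In contrast to *Sct*, *Gal* was low in Neurog1+ precursors with *Mki67* (6.80 and 7.39 CPM) and higher in those without it (200.5 and 171.0 CPM). The subcluster of 37 cells with fibroblast genes stood at 1.84 CPM of *Gal*, and its part here was not tested. Among Neurod1+ precursors, *Gal* stood at 417.1 and 355.8 CPM in cells with *Gap43* and at 46.1 and 144.9 CPM in cells without it, while *Sct* stood at 69.5 and 137.6 CPM and at 138.3 and 198.3 CPM. Neurod1+ cells with more *Meis2* than *Tfap2e* (42 and 37 cells) had 455.2 and 310.1 CPM of *Gal*, and those with equal UMIs of both had 70.0 and 186.8 CPM. Only 2 and 6 Neurod1+ cells had more *Tfap2e*. They stood at 205.2 and 510.9 CPM of *Gal*, above the cells with equal UMIs in each library. These cells were too few to place *Gal* in either early branch. The paper reports that *Tfap2e* appears at later stages than *Meis2*. By lineage subcluster, *Gal* stood at 521.5 CPM in a subcluster of 78 cells with *Meis2* raised. A subcluster of 67 cells with *Robo2*, a listed basal branch marker, raised stood at 318.5 CPM. Others stood at 49.7 CPM (*Meis2* raised) and at 63.3 and 4.90 CPM (*Tfap2e* raised).

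**Figure D2:**
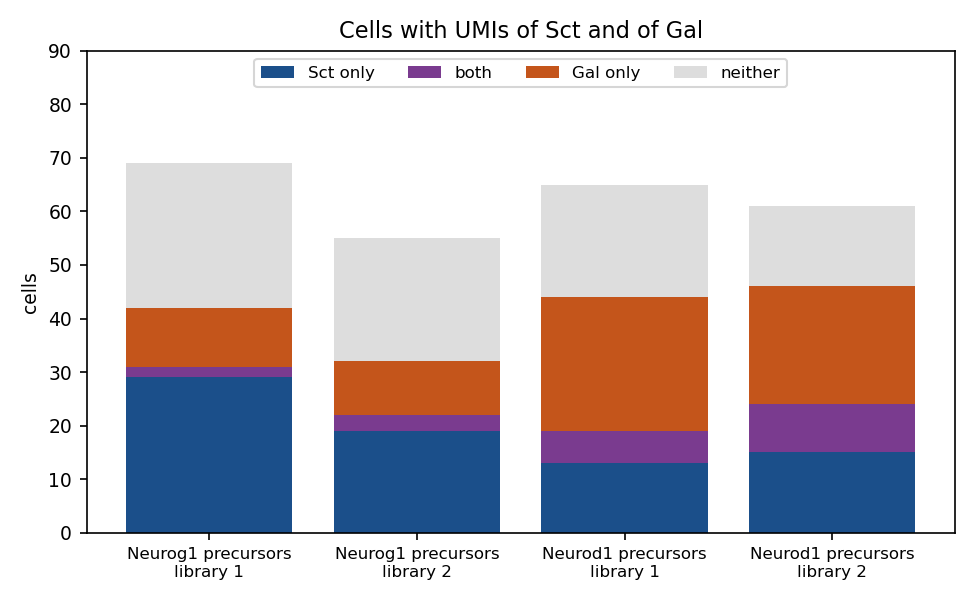
Number of Neurog1+ and Neurod1+ precursors in each library with UMIs of *Sct* only, of *Gal* only, of both or of neither, as stacked bars. Cells with both are the smallest part of all 4 bars, and the part with *Gal* only is larger in the Neurod1+ bars (25 and 22 cells) than in the Neurog1+ bars (11 and 10 cells).

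The first comparison asked which members differed between Neurod1+ and Neurog1+ precursors. With edgeR's quasi-likelihood test on UMIs summed per library and class and Benjamini-Hochberg adjustment over 15068 genes, 4 of the 9 members passed the threshold of 0.05, against 2.92% of all genes tested (1.14% higher and 1.78% lower). *Gal* was higher in Neurod1+ precursors by 1.68 on the log2 scale (SE 0.23, edgeR adjusted p = 0.000197), a difference that ranged from 1.09 without a subcluster carrying fibroblast genes to 3.30 with at least 2 UMIs required for a precursor, and passed in both. *Chga* was higher as well, by 1.17 (SE 0.24, edgeR adjusted p = 0.00909). *Sct* was lower, with a log2 change of -1.31 (SE 0.26, edgeR adjusted p = 0.0127), as was *Scg2* with -2.22 (SE 0.50, edgeR adjusted p = 0.0228). *Pcsk1n* had a log2 difference of 1.70 and missed the threshold (edgeR adjusted p = 0.0501), which it passed with the library as a block (adjusted p = 0.00898). *Scg5* and *Chgb* differed by -0.06 and 0.30 and did not pass.

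The calls depended on the cells and libraries that entered. Leaving out a library took its sums out of the classes compared, so each of them kept 1 sum, assumed to vary like the classes outside the comparison, which kept both libraries and gave the spread. In these fits none of the 4 passed without library 1, and *Gal*, *Chga* and *Sct* passed without library 2. The log2 difference of *Gal* was 1.68 and 1.70 in them, so that its call was lost at the same size of difference, whereas *Chga* went from 0.76 to 1.61 and *Sct* from -0.78 to -1.86. With at least 2 UMIs required for a precursor *Chga* and *Scg2* no longer passed (edgeR adjusted p = 0.145 and 0.136), nor did *Scg2* in thinned cells (edgeR adjusted p = 0.368). In addition, the lineage subcluster of 37 cells had *Neurog1*, *Neurod1*, *Mki67* and *Sct* raised. It held 26 cells of library 1 and also carried genes of fibroblasts and mural cells. The 5 fibroblast markers, all with a UMI, summed to 370.7 CPM in Neurog1+ precursors of library 1, against 8.61 CPM in library 2 (*Lum*, *Col1a2* and *Pdgfra* at 0) and 8.26 and 7.75 CPM in Neurod1+ precursors. The 6 mural markers summed to 243.9 and 17.2 CPM against 9.92 and 23.3 CPM, with *Rgs5* and *Kcnj8* at 0 in Neurog1+ precursors of both libraries. Without that subcluster, an alternative added after the data had been seen, *Sct* and *Scg2* no longer passed (log2 changes of -0.74 and -2.22, edgeR adjusted p = 0.48 and 0.271), whereas *Gal* and *Chga* did. The 6 macrophage markers summed to 175.2 CPM in Neurod1+ precursors of library 1, with *Adgre1* and *Mrc1* at 0, and to between 10.3 and 23.3 CPM in the other 3 sums. In the same sum the 5 dendritic cell markers reached 604.9 CPM, against 44.8 to 53.7 CPM in the others, with *Cd209a* and *Flt3* at 0 in all 4, and the 5 B cell markers 90.9 CPM, against 2.44 to 6.89 CPM, with *Ms4a1* at 0 in all 4. The part of these cells in the result was not tested.

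The second comparison set immature neurons, as the mean of both branches, against Neurod1+ precursors. By the same edgeR test 5 of the 9 members were called, against 10.1% of all genes (4.85% higher and 5.27% lower). *Gal* was lower in immature neurons by a log2 change of -3.01 (SE 0.22, edgeR adjusted p = 2.67e-08). *Sct* was lower too (edgeR adjusted p = 7.01e-07), with the bounds on its fold given above, and *Scg2* was lower on 15 UMIs in Neurod1+ precursors and 1 in immature neurons (edgeR adjusted p = 0.00439). In the opposite direction, *Scg5* was higher by 1.27 (SE 0.19, edgeR adjusted p = 0.000154) and *Chga* by 0.97 (SE 0.19, edgeR adjusted p = 0.00238). *Chgb* (1.14) and *Pcsk1n* (0.28) did not pass. *Gal*, *Sct* and *Scg2* thus went down at the step at which *Chga* and *Scg5* went up. The *Chga* call was lost without either library and the *Scg2* call without library 1 or without the subcluster with fibroblast genes. The 5 ciliated cell markers summed to 305.7 and 329.4 CPM in Neurod1+ precursors (*Tmem212* at 0 in both) and to between 48.1 and 86.2 CPM in the 4 sums of immature neurons, where *Foxj1* and *Tmem212* were at 0. The lineage subcluster of 76 cells had *Foxj1*, *Dynlrb2* and *Tekt1* raised together with *Neurog1* and *Neurod1*, and was kept as part of the lineage. The part of the ciliated cell markers in the result was not tested.

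*Chga* encodes chromogranin A. Its level was 72.0 and 125.7 CPM in Neurog1+ precursors and 218.1 and 213.1 CPM in Neurod1+ precursors. It was 586.1 and 534.8 CPM in immature apical neurons and 294.9 and 254.7 CPM in immature basal neurons. Mature apical VSNs had 2816.8 and 2447.6 CPM and mature basal VSNs 2023.5 and 1732.4 CPM, and every mature cell held at least 1 UMI. Each class from Neurod1+ precursors to mature apical VSNs stood above the one before it in both libraries. One Neurog1+ cell of library 2 held 36 of the 73 UMIs of its class. Its background was 21.1 and 20.1 CPM in macrophage-like cells (6.64% and 6.98% of cells), and it stood at 24.6 and 19.9 CPM in sustentacular-like cells, near that background.

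*Scg5* encodes the chaperone 7B2, which keeps prohormone convertase 2 from maturing too early. It was already present in precursors, at 72.0 and 79.2 CPM in Neurog1+ and 81.0 and 62.0 CPM in Neurod1+ cells, which overlapped. Immature neurons had 178.6 and 159.3 CPM (apical) and 170.5 and 138.7 CPM (basal), and these overlapped too. Mature VSNs stood above them, at 374.3 and 366.1 CPM (apical) and 255.6 and 255.7 CPM (basal). Outside the lineage *Scg5* was highest in olfactory ensheathing-like cells, the glia of the sensory axons, at 37.0 and 22.1 CPM (7 of 32 and 6 of 41 cells), against 2.49 and 2.83 CPM in macrophage-like cells.

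*Chgb* encodes chromogranin B. It was barely detected before maturation, with 14 UMIs in all precursors, and stood at 6.57 and 11.7 CPM in immature apical and 13.8 and 25.5 CPM in immature basal neurons. Mature apical VSNs had 180.6 and 176.4 CPM in 89.0% and 85.0% of cells, and mature basal VSNs 34.5 and 54.1 CPM in 37.5% and 52.1% of cells. Thinned to 4000 UMIs per cell, the shares were 52.1% and 50.8% against 17.4% and 23.4%. The apical class was higher in both libraries on either measure, and macrophage-like cells had 0.699% and 0.127% of cells with a UMI.

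*Pcsk1n* encodes proSAAS, an inhibitor of prohormone convertase 1. It stood at 10.98 and 6.89 CPM in Neurog1+ precursors, 31.4 and 29.1 CPM in Neurod1+ precursors, 49.3 and 33.6 CPM in immature apical and 27.6 and 28.3 CPM in immature basal neurons. Mature apical VSNs had 131.5 and 99.7 CPM in 52.1% and 48.6% of cells, while mature basal VSNs had 36.9 and 33.2 CPM in 10.4% and 14.6% of cells. Of the mature classes, then, the apical one stood apart from all others, and the mature basal class overlapped with immature apical neurons.

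**Figure D3:**
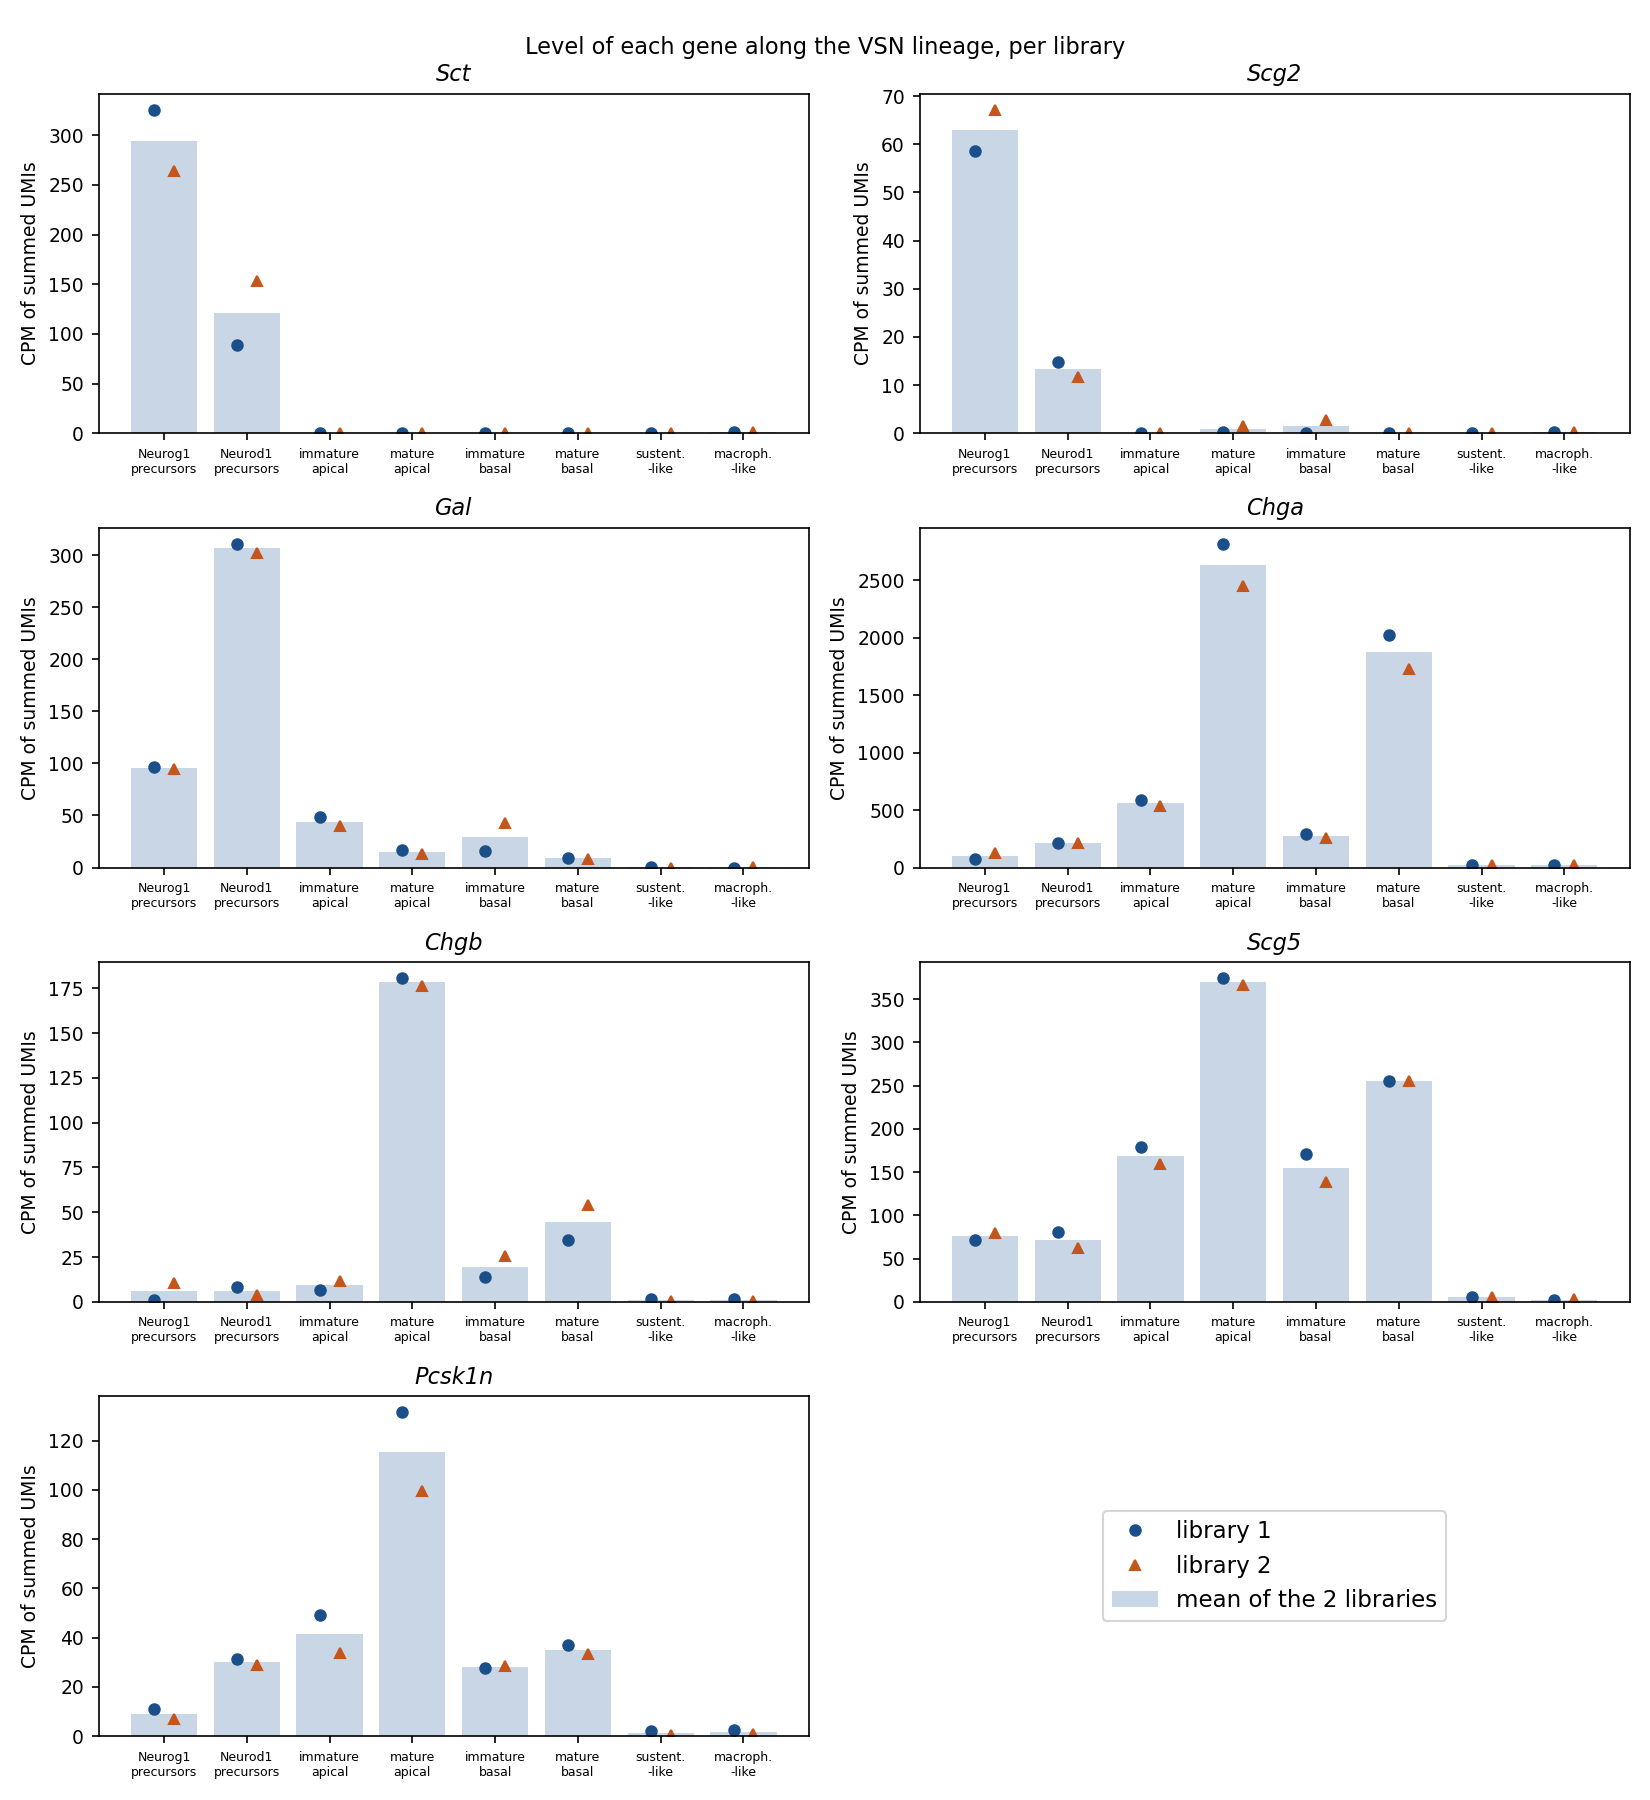
Level of the members along the lineage and in sustentacular-like and macrophage-like cells, in CPM on linear axes from 0 that differ between panels, with bars for the mean and 1 point per library. *Sct* and *Scg2* are near 0 after the precursors, *Gal* peaks at the Neurod1+ stage, and *Chga*, *Chgb*, *Scg5* and *Pcsk1n* reach their highest points in mature apical VSNs.

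Maturation was compared within each branch. In the apical branch 5 of the 9 members passed the edgeR test, against 28.6% of all genes (15.1% higher and 13.5% lower). *Chgb* rose most among them in mature against immature neurons, with a log2 change of 4.37 (SE 0.36, edgeR adjusted p = 2.07e-08). *Chga* rose by 2.28 (SE 0.19, edgeR adjusted p = 2.05e-08), *Pcsk1n* by 1.50 (SE 0.25, edgeR adjusted p = 0.00011) and *Scg5* by 1.17 (SE 0.16, edgeR adjusted p = 1.31e-05). *Gal* fell, with a log2 change of -1.49 (SE 0.28, edgeR adjusted p = 0.000306). All 5 also passed without either library, again with 1 sum per class compared and the spread taken from the other classes.

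In the basal branch 3 of the 9 members passed, against 22.9% of all genes (12.5% higher and 10.4% lower). *Chga* rose by 2.82 (SE 0.21, edgeR adjusted p = 6.37e-09) and *Scg5* by 0.77 (SE 0.19, edgeR adjusted p = 0.00473). *Gal* fell, with a log2 change of -1.57 (SE 0.48, edgeR adjusted p = 0.0214), which was -2.22 without library 1 and -0.72 without library 2. In thinned cells its call was lost (edgeR adjusted p = 0.147). *Chgb* had a log2 change of 1.26 and missed the threshold (edgeR adjusted p = 0.0502), which it passed with the library as a block (adjusted p = 0.0187). *Pcsk1n* changed by 0.38 and did not pass (edgeR adjusted p = 0.56). Without library 2 only *Chga* passed.

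The difference between these changes was tested as an interaction, and 1 of the 9 members passed, against 0.863% of all genes (0.458% higher and 0.405% lower). *Chgb* changed less with maturation in the basal than in the apical branch, by -3.12 on the log2 scale (SE 0.68, edgeR adjusted p = 0.032). Without library 1 or without library 2, and in thinned cells, this call was lost, at adjusted p between 0.318 and 0.425 for the libraries. *Pcsk1n* had an interaction of -1.13 that did not pass (edgeR adjusted p = 0.401), so its rise, called in the apical branch alone, was not shown to differ between branches. *Chga*, *Scg5* and *Gal* had interactions of 0.54, -0.41 and -0.08, none of which passed.

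Branches were also compared at each stage. Among immature neurons, 1 of the 9 members differed, against 2.43% of all genes (1.31% higher and 1.12% lower). *Chga* was lower in basal than in apical cells, with a log2 difference of -0.98 (SE 0.21, edgeR adjusted p = 0.0121), and the call was lost without either library at about the same size of difference (-1.03 and -0.95). The 6 non-sensory epithelium markers, all with a UMI, summed to 3769.3 and 3294.5 CPM in immature basal and 1749.5 and 1586.9 CPM in immature apical neurons, and the 5 dendritic cell markers to 341.0 and 413.2 CPM against 78.9 and 109.6 CPM, with *Flt3* at 0 in all 4 sums. The 6 gland markers summed to 2967.5 and 588.7 CPM against 621.2 and 600.6 CPM, with *Bpifb9a* at 0 in all 4, and the part of these cells was not tested. Among mature VSNs, 2 of the 9 members differed, against 7.22% of all genes (4.07% higher and 3.15% lower). *Chgb* was lower in basal cells, with a log2 difference of -1.96 (SE 0.27, edgeR adjusted p = 5.09e-05), and so was *Pcsk1n*, with -1.67 (SE 0.26, edgeR adjusted p = 0.000173). Both also passed with 1 library left out of these classes (log2 differences of -2.39 to -1.66 and -1.83 to -1.54). *Scg5* (-0.48) and *Chga* (-0.44) did not pass (edgeR adjusted p = 0.0712 and 0.184) but did with the library as a block (adjusted p = 0.00212 and 0.00266), a fit that called 1915 genes in place of 1088. *Sct* and *Scg2* had under 10 UMIs in each of these branch comparisons and were not evaluated.

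Markers of other cells were unequal between the mature classes. The 6 non-sensory epithelium markers, all with a UMI, summed to 3227.9 and 3521.3 CPM in mature basal and 1265.5 and 1333.4 CPM in mature apical VSNs. The 4 monocyte markers summed to 324.6 and 325.8 CPM, all of it from *Plac8*, against 88.0 and 89.4 CPM, with *Chil3* at 0 in all 4 sums. The 5 basal cell markers summed to 179.5 and 180.7 CPM in mature basal VSNs, all 5 with a UMI, and to 12.4 and 28.6 CPM in mature apical VSNs (*Trp63* at 0 in library 1). The 7 sustentacular markers summed to 63.0 and 93.4 CPM against 20.8 and 27.6 CPM, with *Cyp1a2* at 0 in all 4 sums. The 5 fibroblast markers summed to 164.1 and 9.84 CPM in mature basal and 85.7 and 32.6 CPM in mature apical VSNs, and the 6 macrophage markers to 14.3 and 40.6 CPM and to 79.6 and 205.9 CPM. The part of these cells in the differences between mature classes was not tested.

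**Figure D4:**
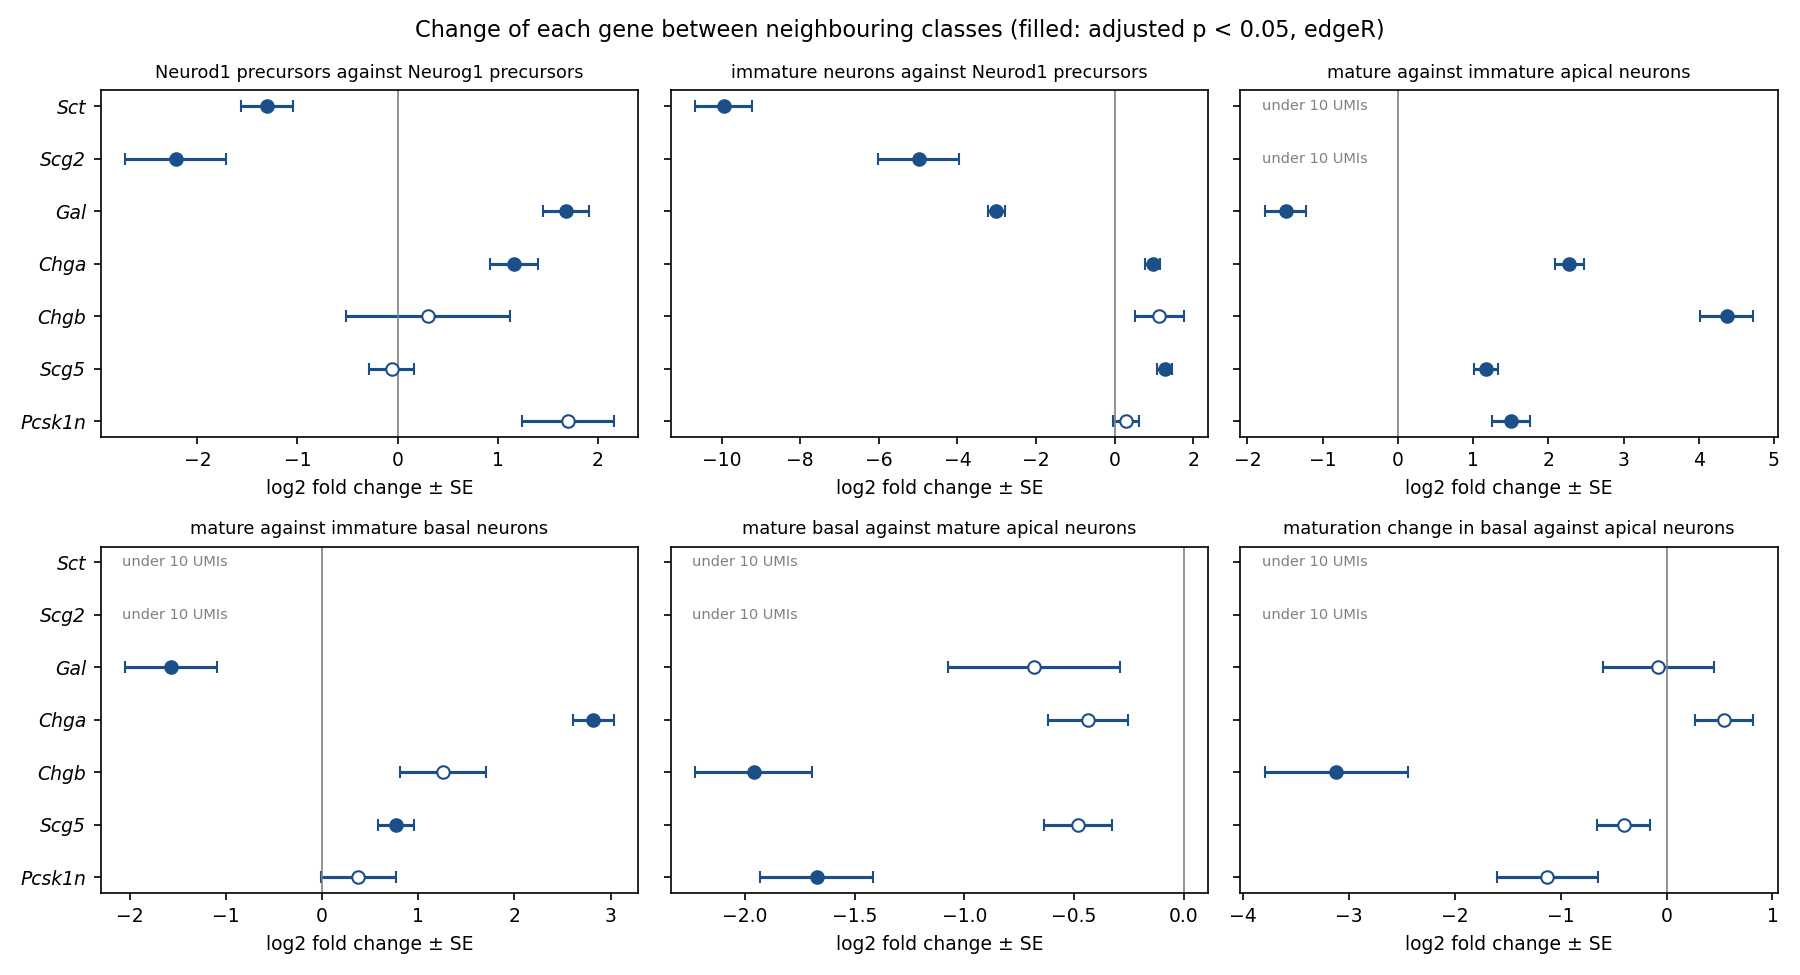
Log2 change of each member with its standard error in 6 comparisons of the lineage (edgeR), with filled symbols for changes past the adjusted threshold of 0.05 and a grey note for members with under 10 UMIs in the classes compared. *Gal* is above 0 in the panel of Neurod1+ against Neurog1+ precursors and below 0 in the other 5, and *Chgb* and *Pcsk1n* are below 0 in mature basal against mature apical VSNs.

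Against sustentacular-like cells, the supporting cells of the sensory epithelium (146 and 137 cells), 5 of the 9 members were higher in mature VSNs, where 24% of all genes were higher, 30.2% lower and 54.3% called in either direction. The log2 differences were 6.41 for *Chga* (SE 0.24, edgeR adjusted p = 2.06e-14), 5.96 for *Chgb*, 5.45 for *Scg5* and 5.18 for *Pcsk1n*, with all 4 called. *Gal*, at 0.55 and 0 CPM in sustentacular-like cells, differed by 4.75 (SE 0.70, edgeR adjusted p = 7.51e-06). Leaving out library 2 or library 1 gave 4.01 and 6.24 for *Gal*, 5.21 and 6.89 for *Chgb* and 4.64 and 6.12 for *Pcsk1n*, and all 3 passed in both fits. *Sct* had no UMI in either class.

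*Npy* encodes neuropeptide Y, a marker of olfactory ensheathing glia. It had 11 UMIs in 6 kept cells and none in any of the lineage classes, which allows a share of cells with a UMI of up to 0.661% in mature apical VSNs (exact binomial interval). It was thus not detectable in the lineage at this depth. *Vgf*, a target of nerve growth factor, had 24 UMIs in 23 kept cells. It was found in 3 of 126 Neurod1+ and 2 of 124 Neurog1+ precursors, and its mean level in Neurod1+ precursors, 1.65 and 3.87 CPM, overlapped with those of monocyte-like and neutrophil-like cells. Neither gene had enough UMIs for a test.

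The wider secretory machinery was described with lists of known genes, each by its counts. Of 10 peptide processing genes, all tested, none was called between the precursor classes, where 2.92% of all genes were. In apical maturation 4 rose and 1 fell, against 15.1% and 13.5% of all genes (median log2 change 0.737, against 0.046 over all genes), and in basal maturation 2 rose, against 12.5% (median 0.365, against 0). *Qpct*, the enzyme that forms the pyroglutamate end of peptides, rose from 8.76 and 4.38 CPM in immature to 418.9 and 416.1 CPM in mature apical neurons (log2 change 5.95, SE 0.31, edgeR adjusted p = 3.07e-11). It was lower in mature basal VSNs, at 78.5 and 63.9 CPM (log2 difference -2.50, SE 0.21, edgeR adjusted p = 5.66e-08), and its change with maturation was smaller there, with an interaction of -3.55 (edgeR adjusted p = 0.0117). *Qpct* thus shared with *Chgb* a higher level in the mature apical class.

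*Pcsk2*, the convertase that the product of *Scg5* binds, was called lower at some of the steps at which *Scg5* was called higher. Basal maturation was an exception, since *Scg5* was called higher there and no peptide processing gene was called lower. It stood at 54.5 and 81.4 CPM in Neurod1+ precursors, 47.1 and 48.2 CPM in immature apical, 6.91 and 8.49 CPM in immature basal, 15.3 and 11.2 CPM in mature apical and 2.38 and 2.46 CPM in mature basal cells. It was lower in immature neurons than in Neurod1+ precursors (log2 change -1.71, edgeR adjusted p = 0.00159), as the mean of 2 branches with unlike levels. It was also lower in mature than in immature apical neurons (-1.77, edgeR adjusted p = 0.00011) and lower in the basal branch at both stages. *Scg3*, a granin that tethers *Chga* protein to vesicle membranes, rose in the basal branch from 149.8 and 141.5 CPM to 922.6 and 908.6 CPM (log2 change 2.70, SE 0.20, edgeR adjusted p = 5.6e-09). In the apical branch it also went up, from 141.3 and 115.4 CPM in immature to 661.2 and 621.4 CPM in mature neurons. *Scg3* (7.15) and *Pcsk1* were also higher in mature VSNs than in sustentacular-like cells.

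Of 20 genes of dense core vesicle formation and release, 18 were tested. In immature neurons against Neurod1+ precursors 6 were higher and 1 lower, against 4.85% and 5.27% of all genes. With maturation 7 rose and 3 fell in the apical branch, against 15.1% and 13.5% of all genes, and 6 rose and 2 fell in the basal branch, against 12.5% and 10.4%. *Cadps2*, a priming factor of dense core vesicles, fell in both branches, from 20.8 and 27.8 to 0.69 and 0.31 CPM in the apical one (log2 change -5.19, edgeR adjusted p = 7.02e-08) and from 11.5 and 19.8 to 1.19 and 3.69 CPM in the basal one (log2 change -2.56, edgeR adjusted p = 0.00648). *Syt7*, a calcium sensor of vesicle release, was higher in immature neurons than in Neurod1+ precursors (log2 change 2.39) and higher in basal than in apical immature neurons (175.1 and 189.6 against 90.9 and 61.4 CPM, log2 difference 1.28, edgeR adjusted p = 0.0088). *Stx1a* fell in the basal branch (126.7 and 135.9 to 65.4 and 63.9 CPM). Its levels in the apical branch were 165.4 and 163.7 CPM in immature and 72.2 and 90.1 CPM in mature neurons, so the fall was not particular to the basal branch. *Rab3a* was higher in mature basal than in mature apical VSNs (1087.8 and 924.6 against 735.8 and 611.7 CPM).

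Of 37 other neuropeptide genes, 9 were tested. *Cartpt*, the precursor of the CART peptide, rose from 57.8 and 54.2 CPM in Neurod1+ precursors to 145.7 and 114.0 CPM in immature apical and 1870.0 and 1879.0 CPM in mature apical neurons (log2 change with maturation 3.89, SE 0.31, edgeR adjusted p = 8.14e-09). In the basal branch it also went up, from 241.9 and 280.2 CPM in immature to 1159.2 and 1369.7 CPM in mature neurons. *Grp*, gastrin-releasing peptide, stood at 28.1 and 27.1 CPM in Neurod1+ precursors and had UMIs in 1 of the 4 sums of immature neurons (log2 change -6.02, edgeR adjusted p = 0.00183). *Nppc*, the precursor of C-type natriuretic peptide, was higher in the basal branch, at 39.2 and 42.5 against 3.29 and 4.38 CPM in immature neurons (log2 difference 3.44, edgeR adjusted p = 0.000794) and at 15.5 and 20.9 against 7.09 and 4.66 CPM in mature VSNs (log2 difference 1.63, edgeR adjusted p = 0.0115). *Adm* was called in mature against immature basal neurons on 2.38 and 12.3 CPM against 0. *Pthlh* (53.5 and 34.6 CPM) and *Adcyap1* (14.7 and 16.4 CPM) were higher in sustentacular-like cells than in mature VSNs. Of 12 receptors for peptides of the members, 2 were tested and neither was called in any comparison.

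Genes most like each member were taken by Pearson's r of log2(CPM + 1) over 42 sums of 21 classes, which share libraries and depth, and are given as a description. *Sct* was most like *Neurod1* (r = 0.900), a gene used to draw the classes, then *Slc26a4* (0.882) and *Mcidas* (0.881). *Scg2* was most like *Prmt8* (0.914), *Hist1h3g* (0.910) and *Kif4* (0.900), and *Gal* like *Smim18* (0.945), *Magee2* (0.945) and *Agbl4* (0.942). The nearest genes of *Chga* were *Gng3* (0.946), *Tmem74bos* (0.935) and *Cntn4* (0.935), those of *Chgb* were *Gabbr2* (0.930), *Tmem116* (0.920) and *Gm17249* (0.917), those of *Scg5* were *Soga3* (0.939), *Pcdh10* (0.931) and *Hecw1* (0.925), and those of *Pcsk1n* were *Hrk* (0.942), *Uchl1* (0.926) and *Ell3* (0.923). Among the members, the highest values were 0.907 for *Chga* with *Pcsk1n* and 0.884 for *Chga* with *Chgb*, and *Sct* correlated with *Scg2* at 0.834 and with *Gal* at 0.588.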

How the data were processed

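The deposited values are raw UMI counts per gene and barcode, which the authors made with Cell Ranger 4 on mm10 and merged with aggr. Whether aggr equalised depth is not stated. The suffix of a barcode gave its library, by the number that the label of the sample carries. The authors' cell filters were applied again (genes in at least 3 cells, 200 to 9000 genes and at most 5% mitochondrial UMIs), which left 10592 of 24084 barcodes, or 10582 with the limit read strictly. Clustering used Seurat 5.3.0 under R 4.3.3 (2000 variable genes, 30 principal components, resolution 0.8, and 15 components at 1.0 for the lineage), without the members and the listed secretory genes. Clusters were called "-like" a type where at least 3 of its markers, and at least 40% of its list, were raised 4-fold. Shallow clusters with none of these markers among their leading genes stayed unnamed. Where an alternative was clustered again, a cluster took the main name held by at least 60% of its shared cells. The gates on *Neurog1*, *Neurod1*, *Gap43*, *Omp*, *Meis2* and *Tfap2e* were set after the data had been seen. A class of the fit and 1 listed gene are not reported here. The gates left 95 lineage cells and 50 mature cells in no class. Other genes that entered the clustering stay among the genes tested, so the shares of all genes called are partly set by it. Doublets were called with Scrublet in scanpy 1.11.5 (172 cells) and kept, except in an alternative.

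UMIs were summed per library and class, and 8 classes in 2 libraries were fitted together with edgeR 4.0.16 (TMM, glmQLFit, glmQLFTest) over all genes that reached 10 UMIs in these sums together. P-values were adjusted by Benjamini-Hochberg over all 15068 genes, with a threshold of 0.05. A member with under 10 UMIs in the classes compared was not evaluated. Genes named are the 9 members, the 2 listed genes with the largest called change in each direction and comparison, and the 3 genes most like each member. The script was tested on simulated counts. The members and lists were chosen with earlier results of these data known. All classes of 1 library were captured together, so the library number pairs their sums, and a fit with it as a block was run. Deviations of same-numbered sums correlated across 10622 genes between -0.0066 and 0.1125 (median 0.0456, 28 pairs of classes). In each class the libraries differed beyond the noise of drawing single UMIs (chi-square per degree of freedom 1.97 to 5.19). This measure does not tell the libraries from the different cells drawn into them. Other alternatives were DESeq2 1.42.0, no filter or filterByExpr, a mitochondrial limit of 10%, each library left out of the classes compared (the spread then comes from the classes outside the comparison), at least 2 UMIs for a precursor, thinned cells, no doublets and subclusters of other types kept. Cells with 5% to 10% mitochondrial UMIs and the lineage without the subcluster with fibroblast genes were added later.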

Additional observations from a re-analysis of the deposited data

Results flagged for a closer look

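*Chgb* and *Qpct* changed by different amounts with maturation in the 2 branches, by the test of the difference itself, at -3.12 and -3.55 on the log2 scale (basal minus apical). The *Chgb* call was lost without either library and in thinned cells, and that of *Qpct* was tried only with and without the library block, where it passed. *Npy* appeared in barcodes that the mitochondrial limit of 5% leaves out. In olfactory ensheathing-like barcodes with over 5% and at most 10% mitochondrial UMIs, it stood at 43.5 CPM in library 1 (22 UMIs in 5 of 85 barcodes) and 12.9 CPM in library 2 (6 UMIs in 4 of 83 barcodes), while the 73 kept cells of that name had none. *Chga* was also high in the unnamed clusters, at 1170.4 and 1079.7 CPM (942 and 584 cells), against 21.1 and 20.1 CPM in macrophage-like cells, and these clusters held 34.7% of its UMIs. By cluster, *Chga* reached 1929.1 and 1488.5 CPM in one of 185 and 100 cells with medians of 1177 and 974.5 UMIs, and 1350.2 and 1137.1 CPM in one of 152 and 139 cells with medians of 27834 and 30224 UMIs. Vomeronasal receptor genes led both, such as *Vmn2r76* and *Vmn1r34* in the first and *Vmn1r70* and *Vmn2r105* in the second. The share of *Chga* in the mature classes therefore need not be its whole share in VSNs. A further unnamed cluster held 210 cells of library 1 and 2 of library 2.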

How the results depend on the processing

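Under the alternatives other than cells with 5% to 10% mitochondrial UMIs, no member changed direction where it had been called, and 16 of 26 called results passed throughout. The cause of each change below was not tested. Of the Neurod1+ against Neurog1+ calls (4 members), DESeq2 made 2 and gave *Scg2* no adjusted p, at least 2 UMIs for a precursor lost *Chga* and *Scg2*, thinned cells lost *Scg2*, the lineage without the subcluster with fibroblast genes gave 2 (87 genes in place of 440), and leaving out a library gave 0 to 3. Leaving out a library gave 3 to 4 of 5 members in immature neurons against Neurod1+ precursors, 1 to 3 of 3 with maturation in the basal branch, 0 of 1 for the interaction and 0 of 1 between immature branches. In thinned cells the *Gal* call of basal maturation was lost and the interaction gave 0, and the immature branches gave 0 with at least 2 UMIs for a precursor. Mature basal against mature apical VSNs gave 4 of 9 members in place of 2 with the library as a replicate block, with no filter and without the subcluster with fibroblast genes. The block changed no other call than those of *Pcsk1n*, *Chgb*, *Scg5* and *Chga* given above. Each of the 7 members tested kept its highest class under the alternatives tried on levels. These were thinned cells, a mitochondrial limit of 10%, no doublets and each library alone. Not tried on levels were at least 2 UMIs for a precursor, subclusters of other types kept, and the lineage without the subcluster with fibroblast genes. In cells with 5% to 10% mitochondrial UMIs the members called were 0, 1, 1, 0, 0 and 1 for these 6 comparisons in the order precursors, immature against Neurod1+, basal maturation, interaction, immature branches and mature branches. There *Gal* reversed in Neurod1+ against Neurog1+ precursors (-2.16) and in apical maturation (0.25), as did *Scg2* in the precursors (0.20) and *Chgb* in the interaction (5.26), none past the threshold. Over the alternatives other than these cells, the genes called ranged from 45 to 928 for the precursors (440 as reported), 370 to 1953 for immature neurons against Neurod1+ precursors (1525), 2150 to 5456 for apical (4308) and 1737 to 3763 for basal maturation (3445), 28 to 404 for the interaction (130), 97 to 639 for immature branches (366) and 520 to 1915 for mature branches (1088). *Scg2*, *Npy* and *Vgf* had 134, 11 and 24 UMIs in the kept cells, which limits what can be said of them.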
